A study of Mus musculus with 6 samples.

Results

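The Zic family was described here through 4 genes, Zic1, Zic2, Zic4 and Zic5, out of 18193 genes with at least 1 probe set of their own on the arrays. Its members were the probe sets that the platform table assigns to exactly 1 of these symbols, 8 probe sets in all. The probe set that stands for a gene was chosen by its measured level, as the one most intense on average over the 6 arrays, and genotype played no part in that choice. Other members of the family were not analysed here.

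RNA came from cells of E10.5 mouse hindbrains, dissected from whole litters, that had been sorted for the reporter tauGFP, in which tau, which binds microtubules, carries GFP into axons. In the swap group (n = 3 arrays) the Hoxb1 locus made another Hox protein in place of Hox-B1, followed by IRES-tauGFP. In the control group (n = 3 arrays) the locus carried IRES-tauGFP behind normal Hoxb1, so both groups had the tagged locus and neither was untagged wild type. The reporter was made wherever the Hoxb1 locus was active, the labels name the tissue as rhombomere 4, and every sort pooled litters, so a value is an average over embryos and over all cell types in the sort. The comparison asks whether Zic transcripts differ when another Hox protein is made from this locus.

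Zic proteins are transcription factors with a tandem array of C2H2 zinc fingers closely related to the fingers of the Gli proteins, which carry Hedgehog signals. In the vertebrate neural tube they are made mainly in dorsal progenitors, where they are known for holding cells in a dividing, undifferentiated state, for forming the roof plate and the neural crest, and for cerebellar growth. Zic1 acts in granule cell progenitors of the cerebellum, and in humans joint deletion of ZIC1 and ZIC4 is associated with Dandy-Walker malformation of the hindbrain. Zic2 is needed for closing the neural tube and for the uncrossed path of retinal axons, and mutations of human ZIC2 cause holoprosencephaly. Zic5 is known for neural crest formation and neural tube closure in the mouse.

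The 4 genes lie in 2 pairs of neighbours that run in opposite directions. In RefSeq, Zic1 and Zic4 are neighbours on chromosome 9 and their annotated bodies overlap at the 5′ ends, while Zic5 and Zic2 are neighbours on chromosome 14 with the long noncoding gene 2610035F20Rik between them. The start regions of 3 of the 4 genes are shown to set the paired genes side by side. They are RefSeq windows of build GRCm38.p6, from 250 bases before to 50 bases after an annotated start, written 5′ to 3′ on the gene's strand, at chr9:91365719-91366018 (minus strand) for Zic1, chr9:91368722-91369021 (plus strand) for Zic4 and chr14:122465609-122465908 (minus strand) for Zic5. The Zic4 window belongs to an annotated start inside the gene, and which of the overlapping stretches a probe set reads is not known. Capitals mark matches, on either strand, to TGATNNAT (a Hox and Pbx composite site), TGACAG (a Meis site) and CCAAT (the CCAAT box), and no matches overlapped.
Zic1 promoter: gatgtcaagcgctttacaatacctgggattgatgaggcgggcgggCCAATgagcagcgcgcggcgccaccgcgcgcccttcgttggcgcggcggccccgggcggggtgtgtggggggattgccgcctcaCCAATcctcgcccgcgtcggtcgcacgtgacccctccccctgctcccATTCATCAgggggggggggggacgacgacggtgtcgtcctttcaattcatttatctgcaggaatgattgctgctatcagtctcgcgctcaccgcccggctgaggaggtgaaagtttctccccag
Zic4 promoter: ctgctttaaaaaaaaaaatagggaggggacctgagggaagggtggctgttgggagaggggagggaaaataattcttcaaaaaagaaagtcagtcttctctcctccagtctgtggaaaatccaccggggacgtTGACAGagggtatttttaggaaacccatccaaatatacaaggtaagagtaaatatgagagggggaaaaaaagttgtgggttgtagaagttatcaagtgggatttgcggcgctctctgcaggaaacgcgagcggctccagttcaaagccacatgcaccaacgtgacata
Zic5 promoter: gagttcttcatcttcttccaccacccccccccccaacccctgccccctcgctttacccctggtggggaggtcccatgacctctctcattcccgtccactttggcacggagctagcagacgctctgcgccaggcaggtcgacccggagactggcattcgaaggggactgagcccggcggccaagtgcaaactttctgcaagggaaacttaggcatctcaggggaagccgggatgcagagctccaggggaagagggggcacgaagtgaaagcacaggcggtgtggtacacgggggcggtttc

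The Zic1 window had a GC content of 65.3% and 31 CpG dinucleotides, a number that 10.6% of the 32851 mouse windows reached. The Zic5 window had 62.7% GC and 15 CpG, and the Zic4 window 46% GC and 8 CpG, against medians of 52.7% and 7 over all windows. The Zic1 window held 1 match to TGATNNAT, a motif found in 8.85% of windows, and 2 matches to CCAAT, found in 37.4%. The Zic4 window held 1 match to TGACAG, found in 19.2%, and the Zic5 window held none of the 3 motifs. A match is only a run of letters and no binding was measured here.

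The median intensity per array was 118 to 139 units, and precision is limited by the 3 arrays per genotype. Hoxb1 stood at a log2 intensity of 12.54, 12.06 and 11.78 in swap arrays 1 to 3, against 12.67, 12.68 and 12.55 in control arrays 1 to 3. Which part of the transcript its probe set reads is unknown, so it does not check the labels. All 9 measured genes of the branchiomotor neuron marker list, of 10 listed, lay at or above the median level, with Isl1, a LIM factor of motor neurons, at 13.84 ± 0.17 in the swap arrays and 13.71 ± 0.07 in the control arrays (SD, n = 3 each). All 13 neural progenitor markers did so too, led by Vim, an intermediate filament protein of neuroepithelial cells, at 14.21 ± 0.05 and 14.20 ± 0.11 in the swap and the control arrays (SD, n = 3 each).

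None of the 8 Zic probe sets passed the test between the genotypes. The gene-level differences of all 4 genes lay between 0.32 and 0.57 on the log2 scale, each higher in the swap arrays and each with a 95% interval that includes 0. Differences are swap minus control in log2 intensity, tested with limma over all 45037 probe sets at a Benjamini-Hochberg adjusted p under 0.05. By that rule limma called 0.0% of all probe sets. At an unadjusted p under 0.05 it called 0 of the 8 Zic probe sets, against 4.57% of all probe sets. Under 14 alternative settings 0 to 3 Zic probe sets had an unadjusted p under 0.05 and 0 passed after adjustment. With weaker probe sets, those below the median level, left out, 3 of 7 Zic probe sets did so, against 838 of 22519 in all. With a limma prior that follows intensity and resists outliers it was 3 of 8, against 1624 of 45037. After quantile normalization it was 0 of 8, against 2108 of 45037. In 1 of the 8 probe sets every swap array lay above every control array, as in 4.11% of all probe sets. Of the 8 probe sets 7 had a difference above 0, as did 48.6% of all probe sets. All 4 genes did at the gene level, as did 50.9% of all genes. The 1 probe set below 0, Zic5 1425666_at at -0.98, had the largest difference in size of the 8. The probe sets share the same 6 arrays, so these counts are not independent observations. The median difference was 0.44 over the 4 genes and 0.0053 over all genes. A changed share of Zic-expressing cells in a sort and a changed amount of Zic RNA per cell cannot be told apart in such pools.

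**Figure D1:**
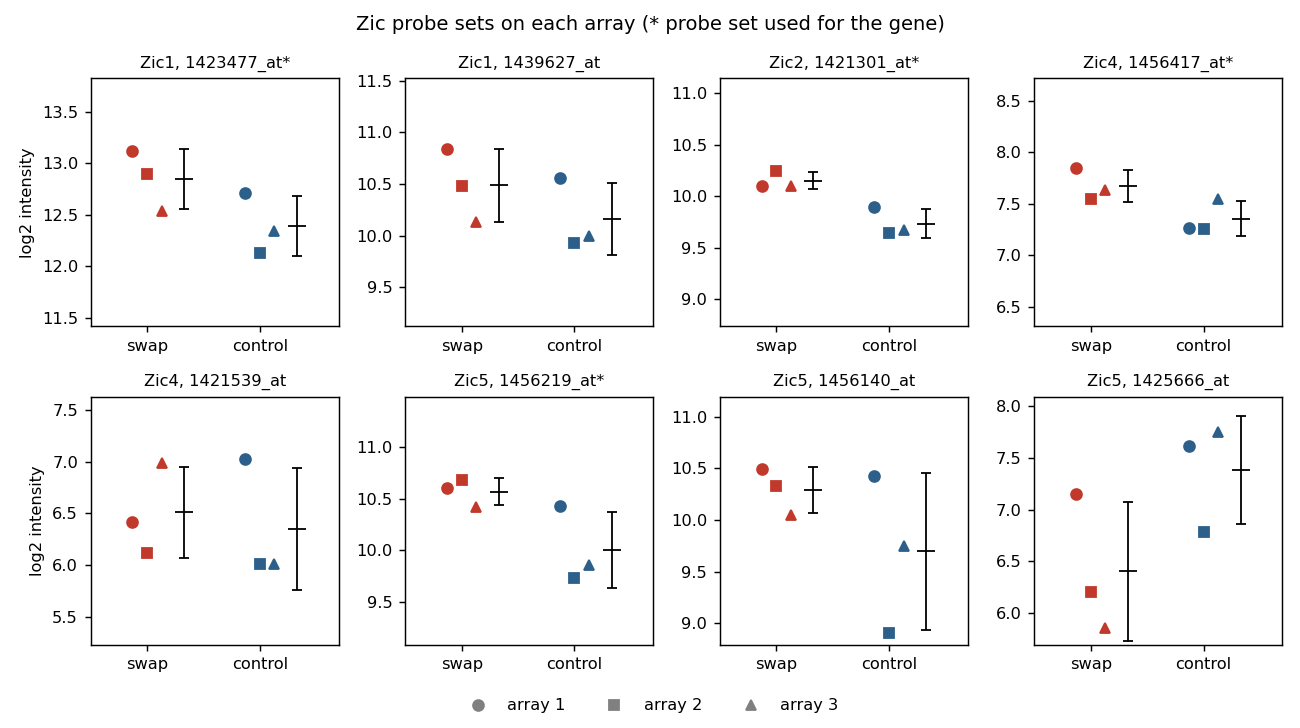
Log2 intensity of the 8 Zic probe sets on each of the 6 arrays, swap left and control right in each panel, with marker shapes for array numbers and a bar at the mean ± SD of the 3 arrays. Every panel spans the same number of log2 units around its own mean. The Zic2 swap arrays all lie above its control arrays, and Zic5 probe set 1425666_at is the panel whose swap mean is the lower one.

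Zic2, the holoprosencephaly gene, was measured by 1 probe set, 1421301_at. Its log2 intensity was 10.10, 10.24 and 10.10 in swap arrays 1, 2 and 3, against 9.90, 9.64 and 9.67 in control arrays 1, 2 and 3. Every swap array lay above every control array, which makes Zic2 the 1 gene of the 4 whose groups did not overlap, and 4.3% of all genes had their groups apart in that direction. In linear units the swap arrays held 1098, 1212 and 1098 intensity units and the control arrays 954, 797 and 813. The difference was 0.41 (SE 0.21, 95% interval -0.11 to 0.93), a 1.33-fold higher level in the swap arrays, at an adjusted p of 1.00 in limma. The exact permutation test over the arrays gave a two-sided p of 0.1, the smallest that 3 against 3 arrays allow. The interval lay within 2-fold in both directions. With 1 array left out the difference ran from 0.37 to 0.49.

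Zic5 was measured by 3 probe sets, and they did not give 1 answer. The gene-level probe set 1456219_at stood at 10.61, 10.68 and 10.42 in swap arrays 1, 2 and 3, against 10.43, 9.73 and 9.86 in control arrays 1, 2 and 3. Swap arrays 1 and 2 lay above every control array, and swap array 3 was just under control array 1. The difference was 0.57 (SE 0.27, 95% interval -0.11 to 1.24; adjusted p of 1.00 in limma), the largest of the 4 gene-level differences. Probe set 1456140_at stood at 10.49, 10.33 and 10.05 in swap arrays 1 to 3, against 10.43, 8.90 and 9.75 in control arrays 1 to 3. It gave 0.60 (SE 0.43), which was 0.20 without control array 2 and 0.96 without control array 1.

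The third Zic5 probe set, 1425666_at, went the other way. It was a weak one, with a mean log2 intensity of 6.89 over the 6 arrays, near the median level of 6.83. The means of 1456219_at and 1456140_at were 10.29 and 9.99. Probe set 1425666_at stood at 7.15, 6.20 and 5.85 in swap arrays 1 to 3, against 7.61, 6.79 and 7.75 in control arrays 1 to 3. Swap array 1 lay above control array 2, so its groups overlapped. The difference was -0.98 (SE 0.45, 95% interval -2.10 to 0.14; adjusted p of 1.00 in limma), and it held its sign with any 1 array left out, from -1.36 to -0.71. It was -0.62 with 64 added to each intensity before log2. Over the 6 arrays the first pair of probe sets followed each other at r = 0.90, while 1425666_at had r = -0.36 with 1456219_at and 0.026 with 1456140_at. These r are descriptions over 6 shared arrays. With the mean of all 3 probe sets as the Zic5 level, the weak 1425666_at included, the difference was 0.060. Which parts of Zic5 the 3 probe sets read is unknown, and whether they read different transcripts was not tested.

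Zic1, the granule progenitor factor, was measured by 2 probe sets that had the same highest and lowest arrays. At the gene level, by 1423477_at, it stood at 13.11, 12.90 and 12.54 in swap arrays 1, 2 and 3, against 12.71, 12.13 and 12.34 in control arrays 1, 2 and 3. These are 8865, 7640 and 5942 intensity units in the swap arrays and 6694, 4477 and 5183 in the control arrays. Swap array 3 lay below control array 1, so the groups overlapped, and 2 of 3 swap arrays lay above every control array. The range within the swap group (0.58) and within the control group (0.58) was wider than the difference of 0.46 (SE 0.28, 95% interval -0.23 to 1.15; adjusted p of 1.00 in limma). The exact permutation test gave a two-sided p of 0.2. With 1 array left out the difference ran from 0.33 to 0.62, and without both arrays numbered 1 it was 0.48.

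The other Zic1 probe set, 1439627_at, stood at 10.84, 10.49 and 10.13 in swap arrays 1 to 3, against 10.56, 9.93 and 9.99 in control arrays 1 to 3. It followed the first at r = 0.95 over the 6 arrays and gave a difference of 0.33 (SE 0.31), which was 0.15 without swap array 1 and 0.53 without control array 1. In both probe sets array 1 was the highest of its genotype.

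Zic4, the neighbour of Zic1, was read at the gene level by 1456417_at. It stood at 7.84, 7.55 and 7.63 in swap arrays 1, 2 and 3, against 7.26, 7.26 and 7.55 in control arrays 1, 2 and 3. Swap array 2 was just under control array 3, and the other two swap arrays lay above every control array. The difference was 0.32 (SE 0.22, 95% interval -0.23 to 0.87; adjusted p of 1.00 in limma), again with an interval within 2-fold. It was 0.19 without both arrays numbered 1. The other probe set, 1421539_at, was the 1 Zic probe set below the median level of the arrays. It stood at 6.42, 6.12 and 6.99 in swap arrays 1 to 3, against 7.03, 6.01 and 6.01 in control arrays 1 to 3. Swap array 3 and control array 1 were high and the rest low. Its difference of 0.16 (SE 0.40) turned to -0.077 without swap array 3, -0.0071 without control array 2 and -0.0064 without control array 3. The pair of Zic4 probe sets had r = -0.0068 over the arrays, so they did not describe the same variation.

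**Figure D2:**
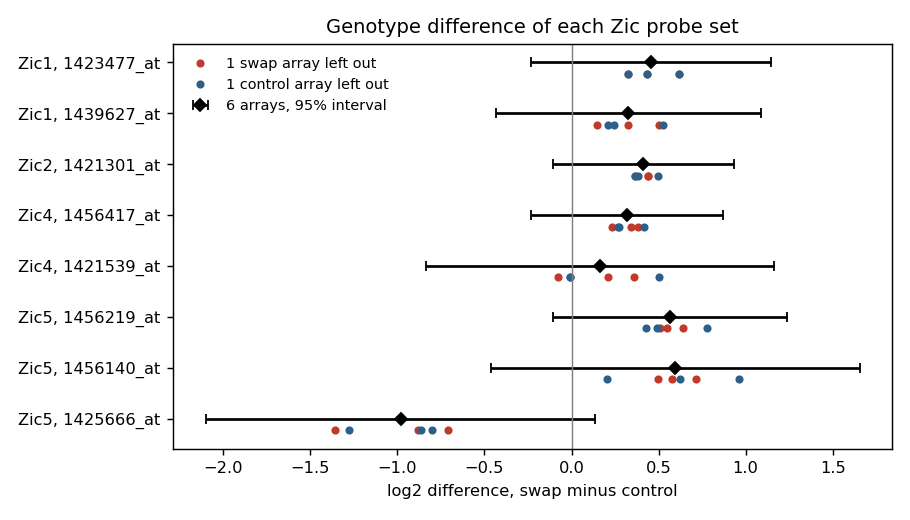
Log2 difference, swap minus control, for each Zic probe set, with the 95% interval from limma on 6 arrays (diamonds and bars) and the difference with 1 array left out (dots under each bar, coloured by the genotype of the array left out). Every interval includes 0, and the intervals of Zic2 1421301_at and Zic4 1456417_at are the 2 that stay within 2-fold.

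Zic5 varied between the 6 arrays together with Zic1 and with Zic2 by Pearson's r. Over the 6 arrays Zic2 and Zic5, the chromosome 14 neighbours, had Pearson's r = 0.95 (two-sided exact permutation p = 0.00556, adjusted over the 6 pairs of genes compared p = 0.0208). Their Spearman's rho was 0.83 (exact permutation p = 0.0583, adjusted p = 0.175). Zic1 and Zic5, which lie on different chromosomes, had r = 0.92 (exact permutation p = 0.00694, adjusted p = 0.0208) and rho = 0.94 (exact permutation p = 0.0167, adjusted p = 0.1). Both pairs passed by Pearson's r and neither by rho after adjustment. With any 1 array left out neither passed by r (r of 0.93 to 0.99 for Zic2 and Zic5 and 0.85 to 0.96 for Zic1 and Zic5). Those fits cannot show that a pair was lost, because 5 arrays allow few permutations, which limits how small p can be. Without control array 1, Zic2 and Zic5 had the higher r of 0.99 but an adjusted p of 0.1 by the exact permutation test. Without the 2 arrays farthest from the median of the first gene of the pair, r was 0.78 for Zic2 and Zic5 and 0.93 for Zic1 and Zic5. Within genotypes r was 0.73 and 0.997 for Zic2 and Zic5 in the 3 swap and the 3 control arrays, and 0.78 and 0.98 for Zic1 and Zic5, with too few arrays for a test. With the mean of all probe sets as the gene level, which brings in the discordant Zic5 probe set, r was 0.33 for Zic2 and Zic5 and 0.78 for Zic1 and Zic5, and neither passed (adjusted p = 0.485 and 0.317 by the exact permutation test).

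Zic1 and Zic2 had r = 0.82 (exact permutation p = 0.0597, adjusted p = 0.119) and rho = 0.71 (exact permutation p = 0.136, adjusted p = 0.272), with r of 0.14 within the swap and 0.96 within the control arrays. The chromosome 9 neighbours Zic1 and Zic4 had r = 0.63 (exact permutation p = 0.176, adjusted p = 0.265) and rho = 0.54 (exact permutation p = 0.297, adjusted p = 0.427). That r was -0.29 without swap array 1 and control array 2, so it rested on those arrays, and it was 0.58 within the swap and -0.13 within the control arrays. With arrays centred on their medians Zic1 passed with Zic2 (r = 0.90) and with Zic4 (r = 0.81), and after quantile normalization Zic1 passed with Zic4 (r = 0.87). Zic4 and Zic2 had r = 0.57 (exact permutation p = 0.247, adjusted p = 0.278) and rho = 0.49 (exact permutation p = 0.356, adjusted p = 0.427). Zic4 and Zic5 had r = 0.51 (exact permutation p = 0.278, adjusted p = 0.278) and rho = 0.37 (exact permutation p = 0.497, adjusted p = 0.497). Within genotypes both of these r were below 0, at -0.73 in the swap and -0.39 in the control arrays for Zic4 and Zic2, and at -0.060 and -0.32 for Zic4 and Zic5. The genes were measured on the same arrays, so shared array effects enter every r. The 6 arrays of both genotypes were permuted together, so the genotype difference enters too. For deviations from genotype means r was 0.94 for Zic2 and Zic5, 0.84 for Zic1 and Zic5 and 0.64 for Zic1 and Zic2. It was 0.20 for Zic1 and Zic4, -0.50 for Zic4 and Zic2 and -0.24 for Zic4 and Zic5.

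**Figure D3:**
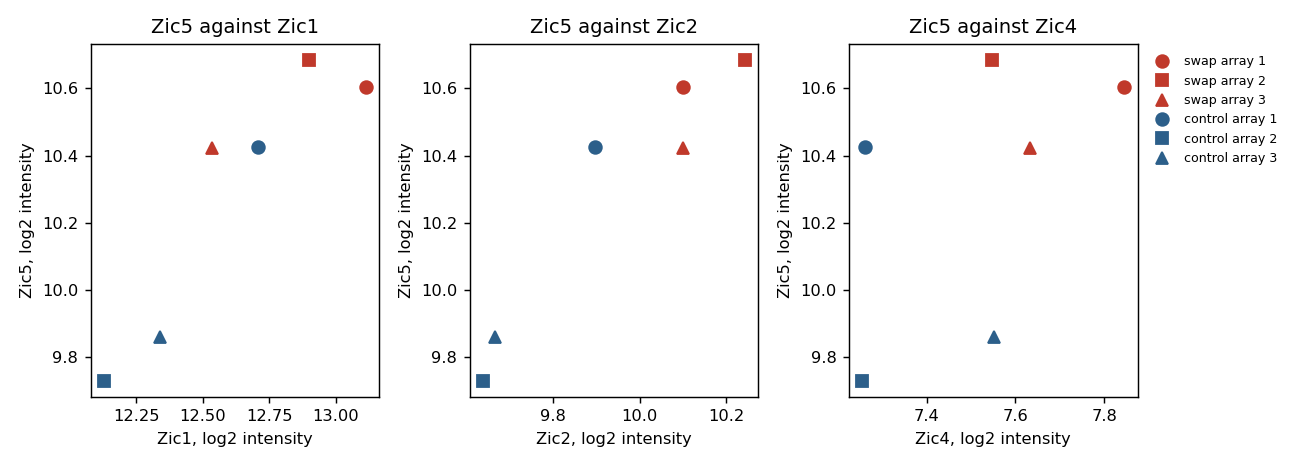
Log2 intensity of Zic5 against Zic1, Zic2 and Zic4 at the gene level on the 6 arrays, 3 swap and 3 control, with marker shapes for array numbers. Zic5 follows Zic1 (r = 0.92) and Zic2 (r = 0.95) and is scattered against Zic4 (r = 0.51), and control arrays 2 and 3 form the low end against Zic1 and Zic2.

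The 2 nearest measured genes on each side of both Zic pairs, and the 1 measured gene between Zic5 and Zic2, made 9 neighbours. Beside the Zic1 and Zic4 pair, Tbc1d2b was at a difference of -0.18 (SE 0.27) and Adamts7, a secreted metalloprotease, at -0.46 (SE 0.46). On its other side the phospholipid scramblase genes Plscr1 and Plscr2 were at -0.18 (SE 0.29) and 0.090 (SE 0.56). Beside the Zic5 and Zic2 pair, Gm5089 was at -0.20 (SE 0.30) and Clybl at -0.031 (SE 0.59). On its other side Pcca, a subunit of the mitochondrial propionyl-CoA carboxylase, was at -0.070 (SE 0.29) and Ggact at -0.61 (SE 0.86). The noncoding 2610035F20Rik between Zic5 and Zic2 was at -0.71 (SE 0.55). Adamts7, Plscr2, Ggact and 2610035F20Rik lay below the median level. Of the 9 neighbours 8 had a difference below 0, as did 49.1% of all genes, and 0 passed limma's test (0 at an unadjusted p under 0.05).

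The genes whose array pattern was most like that of each Zic gene were ranked by Pearson's r over the 6 arrays among 11167 genes at or above the median level. Nearest to Zic1 was Rspo3, a secreted enhancer of Wnt signals, at r = 0.99, followed by Lmbr1 (0.99) and Imp4, a factor of ribosomal RNA processing (0.99). Rspo3 stood at 8.65, 8.41 and 7.53 in swap arrays 1 to 3, against 7.78, 6.27 and 6.91 in control arrays 1 to 3, a difference of 1.21 (SE 0.50; adjusted p of 1.00 in limma). Nearest to Zic2 were the LIM-domain binding factor Ldb2 (0.98), Eef1e1 (0.97) and the fatty acid synthase Fasn (0.96). Nearest to Zic4 were the tRNA-modifying enzyme Alkbh8 (0.99), Fundc1 (0.99) and Sel1l3 (0.98). Nearest to Zic5 were the nucleolar protein Rrp8 (0.99), the paraspeckle protein Pspc1 (0.99) and the kinetochore protein Ska1 (0.99). With only 6 arrays the named genes were not alone. Of the 11167 genes, 196, 63, 73 and 101 had r over 0.9 with Zic1, Zic2, Zic4 and Zic5. The median r over all genes compared was 0.015, 0.021, 0.011 and 0.0063.

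Among the relatives of the family, the Gli and Glis zinc-finger genes, 6 of 6 were measured and 0 passed in either direction. The swap arrays were higher for 4 and lower for 2 of them, with a median difference of 0.26. Gli3, the main repressor of Hedgehog targets in the dorsal neural tube, stood at 13.09 in the swap and 13.05 in the control arrays, a difference of 0.043 (SE 0.23). Gli1, a target and activator of the pathway, differed by 1.86 (SE 0.74) below the median level, and Glis2 by 0.47 (SE 0.23). The 15 measured Hedgehog genes of 16 listed had 0 calls, 10 higher and 5 lower, and a median of 0.15, with the Hedgehog co-receptor Cdon at 0.51 (SE 0.27). Ptch1, far more intense than Gli1, stood at 13.87 in the swap and 13.89 in the control arrays, a difference of -0.018 (SE 0.21).

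The human holoprosencephaly genes other than ZIC2, represented by 12 of 12 mouse counterparts, had 0 calls, 5 higher and 7 lower, and a median of -0.018. Of them the forebrain factor Six3 was at 0.40 (SE 0.33). The 15 partner and reported target genes of Zic proteins were all measured, with 0 calls, 10 higher and 5 lower, and a median of 0.075, where Tcf7l2, a transcription factor of the Wnt pathway, was at -0.46 (SE 0.29). The 17 measured BMP signal genes of 18 had 0 calls, 10 higher and 7 lower, and a median of 0.047, with the signal transducer Smad5 at 0.62 (SE 0.25). Gli1 and Cdon are each in more than 1 of these lists, as are Shh, Ptch1, Gli2, Gli3, Gas1 and Disp1, so the list counts are not separate. Some members, such as Pax3 and Bmp6, recur in the roof plate list below.

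Roof plate and dorsal progenitor genes mark the cells in which Zic genes are known to be made. Of 17 listed 15 were measured, 0 passed, and the swap arrays were higher for 11 and lower for 4, with a median of 0.19. Their summed intensity was 12462, 11857 and 10878 in swap arrays 1, 2 and 3, against 10232, 10201 and 10403 in control arrays 1, 2 and 3, so the sums did not overlap. Sums did not overlap in 2 of the 11 marker lists, this one included, and in 0 of the 5 other lists. The mean log2 intensity of the list, in which intense genes weigh no more than others, did overlap, at 8.21, 8.37 and 7.86 in swap arrays 1 to 3, against 7.88, 7.98 and 7.63 in control arrays 1 to 3. Pax3, a paired-box factor of dorsal progenitors and their most intense member, stood at 12.25, 12.13 and 11.95 in swap arrays 1 to 3, against 12.01, 11.40 and 11.83 in control arrays 1 to 3. Its difference was 0.36 (SE 0.26), and control array 2 was its lowest array, as it was for all 4 Zic genes at the gene level. The list did not share this pattern. Olig3 was also lowest in control array 2 (8.26), but Neurog2 (11.74) and Neurog1 (9.90) were at their highest there. The roof plate signal Bmp6 was at 0.78 (SE 0.40) and the proneural factor Neurog1 at -0.52 (SE 0.26). The other Bmp genes measured in the list went the other way from Bmp6. Bmp7 was at -0.13 (SE 0.37) and Bmp4, below the median level, at -0.18 (SE 1.44). The part of dorsal cell content in the Zic differences was not tested.

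The forebrain and midbrain genes summed to 2068 to 2903 in the swap arrays and 1528 to 1927 in the control arrays (13 of 14 measured, 11 higher and 2 lower, median 0.40). The mean log2 intensity of that list did overlap, at 6.53 to 7.05 in the swap arrays and 6.12 to 6.64 in the control arrays, and its most intense member Otx2, a forebrain and midbrain factor, was at 9.53 ± 0.30 in the swap and 8.51 ± 0.06 in the control arrays (SD, n = 3 each; adjusted p = 0.818 in limma). Neural progenitor markers summed to 62326 to 63820 in the swap arrays and 61429 to 65720 in the control arrays (13 of 13 measured, median -0.023). Neuron markers summed to 53694 to 62877 in the swap arrays and 46696 to 61172 in the control arrays (10 of 10 measured, median 0.12). Dorsal interneuron genes summed to 9447 to 12483 in the swap arrays and 8496 to 12033 in the control arrays (13 of 14 measured, median -0.038).

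Branchial and meningeal mesenchyme genes, whose cells can also make Zic1, summed to 7035 to 10712 in the swap arrays and 6495 to 12964 in the control arrays (17 of 17 measured, median -0.10). The highest mesenchyme sum was in control array 2, where Zic1 was lowest. Neural crest genes summed to 17656 to 20726 in the swap arrays and 19495 to 21234 in the control arrays (10 of 11 measured, median -0.0027). Branchiomotor markers summed to 43588 to 57038 in the swap arrays and 44421 to 48036 in the control arrays, with a median of -0.10. Endothelial genes summed to 730.1 to 909 in the swap arrays and 538 to 763 in the control arrays (9 of 9 measured, median 0.18). Erythroid genes summed to 15723 to 31901 in the swap arrays and 21122 to 33975 in the control arrays (9 of 10 measured, all 9 lower, median -0.28). The swap arrays were higher for 8 and lower for 1 of the endothelial genes, and higher for 9 and lower for 1 of the neuron markers. Several lists held weak genes. At or above the median level lay 1 of 9 endothelial, 4 of 9 erythroid, 5 of 10 macrophage, 7 of 13 forebrain and midbrain and 10 of 15 roof plate genes.

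**Figure D4:**
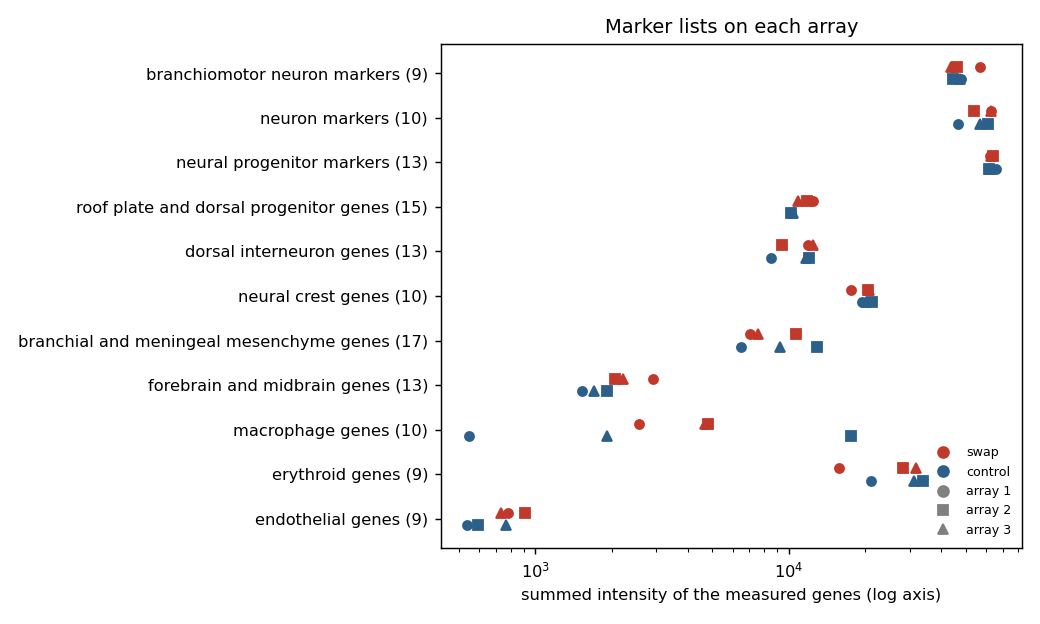
Summed intensity, on a log axis, of the measured genes of 11 marker lists on each array, swap above control in each row, with the number of measured genes in brackets and marker shapes for array numbers. Roof plate and forebrain lists have all swap arrays to the right of all control arrays by these sums, though not by mean log2 intensity, and the macrophage list spreads widely within the control arrays.

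Macrophage genes summed to 2568, 4790 and 4679 in swap arrays 1, 2 and 3, against 549, 17660 and 1912 in control arrays 1, 2 and 3 (10 of 10 measured, median 0.46). C1qb, a complement gene of macrophages, was at 13.41 in control array 2 and at most 11.55 on the other arrays. All 4 Zic genes were at their lowest in that array at the gene level (Zic4 level with control array 1). Without it the differences were 0.33 for Zic1, 0.37 for Zic2, 0.27 for Zic4 and 0.43 for Zic5. As a measure of RNA integrity, the Actb control probe set at the 3′ end exceeded that at the 5′ end in log2 signal by 2.92, 2.51 and 2.45 in swap arrays 1 to 3, against 2.67, 2.57 and 2.41 in control arrays 1 to 3, and array 1 of each genotype, the highest for Zic1, was also the highest for this measure. The same measure for Gapdh was 1.93, 1.23 and 1.35 in swap arrays 1 to 3, against 1.35, 1.41 and 1.28 in control arrays 1 to 3, where control array 2, the lowest for Zic1, was the highest control. Without both arrays numbered 1 the differences were 0.48 for Zic1, 0.52 for Zic2, 0.19 for Zic4 and 0.76 for Zic5.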

How the data were processed

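The authors deposited linear intensities in a table of 45101 probe sets by 6 arrays. The submitters' processing notes name the affy package, and how background was handled and probes were summarised is not given in the sources used here. No detection calls, scanner files or hybridization dates were used here, so no batch could be tested. All intensities were above 0, and log2 was taken with no offset.

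The 64 array control probe sets were left out. Of the other 45037 probe sets 34945 had 1 symbol in the platform table, 932 had several and 9160 had none. The median level is the median over probe sets of the mean log2 intensity. limma 3.58.1 in R 4.3.3 (lmFit, eBayes) was fitted to all 45037 probe sets with genotype as the 1 term, two-sided, with 95% intervals. Replicates are independent biological samples, per the series design. The scripts were tested on simulated data. Exact permutation tests ran over arrays.

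Named genes were all Zic probe sets, the 3 genes most like each Zic gene with clone names passed over, the 2 list members with the smallest p, and the 2 most intense members of marker lists, of which a selection is printed. Gli3, Ptch1, Olig3, Bmp4, Bmp7 and the 9 chromosomal neighbours fall outside that rule and were chosen after their values were computed. The members and the 16 gene lists were chosen with earlier results of these data known. The identity of the second Hox protein is not reported here.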

Additional observations from a re-analysis of the deposited data

How the results depend on the processing

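The count of Zic probe sets past the threshold was 0 in limma under all 14 alternatives fitted per probe set, as was the count over all probe sets. Before adjustment 0 to 3 Zic probe sets and 838 to 2375 probe sets in all had p under 0.05. The 838 came from the fit that left out the weaker probe sets and held 22519, while the other fits held all 45037. The gene-level differences of Zic1, Zic2, Zic4 and Zic5 kept their sign in all 16 alternatives run for each, at 0.33 to 0.62, 0.37 to 0.52, 0.19 to 0.42 and 0.06 to 0.78. Among these, the replicate block, the fit without weaker probe sets, the prior that follows intensity and the permutation test cannot change a difference. Averaging cannot change that of Zic2, which has 1 probe set. In those the sign was fixed in advance. The lowest for Zic5 came from averaging its 3 probe sets, 1 of which lay near the median level and went the other way. Zic4 probe set 1421539_at, below the median level, had a difference of -0.077 to 0.50 with 1 array left out, below 0 in 3 of those 6 fits (-0.077, -0.0071 and -0.0064), and the cause was not tested. Zic5 probe set 1425666_at was at -0.62 with the offset of 64.

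Replicate numbers were given to both genotypes. The deviations of same-numbered arrays from their genotype means correlated at 0.23, 0.03 and 0.22 for numbers 1, 2 and 3. Between arrays of unlike number r ran from -0.29 to 0.12, below the r of numbers 1 and 3. The median intensity was 118 and 118 units in swap and control array 1, 122 and 130 in array 2, and 139 and 139 in array 3. Not every array correlated best with its own number. The main fit did not treat the arrays as pairs, and what same-numbered arrays share was not tested. With the replicate number as a block limma called 0 probe sets and 0 Zic probe sets, and the differences were the same by construction, at 0.46, 0.41, 0.32 and 0.57.

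Median centring gave r = 0.90 for Zic1 and Zic2 and 0.81 for Zic1 and Zic4, and quantile normalization gave 0.87 for Zic1 and Zic4, which then passed. Averaging probe sets gave r = 0.78 for Zic1 and Zic5 and 0.33 for Zic2 and Zic5, which then did not pass. With 1 array left out r ran from 0.85 to 0.96 for Zic1 and Zic5 and from 0.93 to 0.99 for Zic2 and Zic5. Neither pair then passed, but 5 arrays allow few permutations, so those fits cannot show that a pair was lost. At this number of arrays 2 of the 8 Zic intervals lay within 2-fold.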
